A study of Mus musculus with 4 samples.

Results

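The Hippo effectors *Yap1* and *Wwtr1*, the 4 TEAD factors and 4 of their known targets were followed by name in RNA-seq libraries of sorted Müller glial cells from control and *Rax* iCKO mice. The genes are *Yap1*, *Wwtr1* (the gene of TAZ), *Tead1*, *Tead2*, *Tead3*, *Tead4*, *Cyr61* (now *Ccn1*), *Ctgf* (now *Ccn2*), *Ankrd1* and *Amotl2*. They are 10 of the 24322 gene symbols in the files, taken by name and not by a threshold on any value. Of the 10, 9 were above 0 in at least 1 library and 7 had a mean FPKM of at least 1 and were tested. FPKM scales the fragments on a gene by its exon length and by the library's mapped fragments.

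Each of the 4 libraries came from the mTFP-positive cells of 1 mouse, sorted by FACS from papain-dissociated retina. The 2 control mice, numbers 7984 and 3911, were Raxflox/WT, and the 2 *Rax* iCKO mice, numbers 7983 and 3914, were Raxflox/flox. Every mouse also carried Rlbp1-CreERT2 and the Cre reporter R26-CAG-LoxP-mTFP1. All 4 mice received tamoxifen at P4, and their retinas were taken at P14. The labels give 129S6 as the background. The controls thus also carried a floxed allele, Cre and tamoxifen, and differed from the *Rax* iCKO mice in their second *Rax* allele. *Rlbp1* sequences drive CreERT2, a tamoxifen-dependent Cre, in Müller glia, and the study also describes recombination in the pigment epithelium. The comparison asks which RNAs differ in Müller glia when both alleles of *Rax*, a homeobox gene of retinal progenitors and Müller glia, are open to deletion. In both *Rax* iCKO libraries *Rax* RNA was lower than in either control rather than absent.

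The mapped reads, estimated from whole-read steps in the low values, came to 12720000 in control mouse 7984 and to between 9280000 and 9440000 in the other 3. *Rax* was at 189 and 181 FPKM in the controls and at 111 and 98.4 FPKM in the *Rax* iCKO libraries, a ratio of means of 0.566. The groups did not overlap, but *Rax* did not pass the limma test used below (log2 fold change -0.82, SE 0.21, adjusted p 0.9999). Reads from a recombined allele and cells that kept *Rax* cannot be told apart with a single FPKM per gene. All 10 markers of Müller glia were at 33.0 FPKM or more in every library. *Xist*, which coats the silenced X chromosome of female cells, had 24.5 and 21.2 FPKM in the controls against 0.0119 and 0.00610 FPKM in the *Rax* iCKO libraries. The 4 Y-linked genes *Ddx3y*, *Eif2s3y*, *Kdm5d* and *Uty* were above 0 only in *Rax* iCKO mouse 7983. Genotype and the level of *Xist* cannot be told apart in these 4 mice.

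YAP and TAZ are transcriptional coactivators that carry the output of the Hippo pathway. A kinase cascade of MST and LATS kinases phosphorylates them and holds them in the cytoplasm. When the cascade is quiet they enter the nucleus, bind the TEAD factors, which hold the DNA contact, and switch on genes such as *Cyr61* and *Ctgf*. Their activity is set largely by phosphorylation and location, so the RNA of *Yap1* and *Wwtr1* is not a measure of it. In the mouse retina YAP is known as a protein of Müller glia, and injury is known to alter its level.

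The windows of 250 bases before annotated gene starts were searched for the core TEAD motif, GGAATG, on both strands (CATTCC on the other). RefSeq windows on GRCm38.p6 were at hand for 7 of the 10 genes, namely *Yap1*, *Wwtr1*, *Tead2*, *Tead3*, *Cyr61*, *Ankrd1* and *Amotl2*. The motif was in 8 of their 10 windows, which belong to 6 genes, against 12.6% of 32851 windows over all genes. The 2 windows of *Wwtr1* overlap each other and hold the same match, and 2 of the 3 windows of *Tead3* overlap, so they are not independent. *Cyr61*, *Ankrd1* and *Amotl2* are on the list as known targets, so a motif before them was likely in advance. The share over all genes counts windows and not genes. *Tead2* held no match. The letters TAATT, which the study used as the predicted site of Rax, or their reverse complement AATTA, were in 0 of these 10 windows against 25% of all windows. The study predicted its Rax sites in a much longer stretch before *Socs3*, so these short windows cannot show that a gene lacks such sites. The 10 windows held 54.8% to 76.8% G and C, and the share over all windows was not matched for this. A match, or its absence, is a description of letters only. The windows of both coactivators and of the most abundant target are shown because the results turn on these genes, 5′ to 3′ along the gene's strand with the TEAD motif in capitals.

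*Cyr61*, chr3:145649986-145650235, minus strand, upstream of every annotated exon: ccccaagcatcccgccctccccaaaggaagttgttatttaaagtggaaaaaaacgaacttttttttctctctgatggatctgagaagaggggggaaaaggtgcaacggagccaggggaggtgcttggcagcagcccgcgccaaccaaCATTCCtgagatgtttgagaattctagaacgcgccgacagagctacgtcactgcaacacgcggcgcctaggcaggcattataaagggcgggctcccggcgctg
*Yap1*, chr9:8004597-8004846, minus strand, whose first 17 bases lie in an exon of the noncoding gene *Gm45494*: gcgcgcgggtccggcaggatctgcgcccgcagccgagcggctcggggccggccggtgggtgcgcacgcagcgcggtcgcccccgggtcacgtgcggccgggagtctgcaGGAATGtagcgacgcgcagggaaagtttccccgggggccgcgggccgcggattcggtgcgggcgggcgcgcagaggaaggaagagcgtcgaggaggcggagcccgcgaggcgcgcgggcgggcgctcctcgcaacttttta
*Wwtr1*, chr3:57575911-57576160, minus strand, upstream of every annotated exon: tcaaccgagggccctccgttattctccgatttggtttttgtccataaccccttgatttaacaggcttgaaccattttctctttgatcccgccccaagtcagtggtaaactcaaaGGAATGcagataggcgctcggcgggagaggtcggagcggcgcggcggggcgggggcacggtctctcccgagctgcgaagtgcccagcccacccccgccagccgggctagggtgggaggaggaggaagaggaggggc

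The match lay 103 to 98 bases before the gene start in *Cyr61*, 141 to 136 bases before it in *Yap1* and 136 to 131 bases before it in *Wwtr1*. For the other targets the 30 bases around each match are shown, since these windows run into exons of longer transcripts in GENCODE.

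*Amotl2*, chr9:102717727-102717756, plus strand: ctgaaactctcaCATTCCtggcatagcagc
*Ankrd1*, chr19:36120037-36120066, minus strand: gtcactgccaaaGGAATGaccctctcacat
*Ankrd1*, chr19:36119950-36119979, minus strand: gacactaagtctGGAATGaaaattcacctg

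In these cells the 4 targets ranged from among the most abundant transcripts to about 1 read. Over all 4 libraries *Cyr61* had the highest mean of the 10 genes, 398 FPKM, followed by *Ctgf* at 66.7 FPKM. Next came *Tead2* at 9.61, *Amotl2* at 9.31, *Wwtr1* at 7.91 and *Yap1* at 5.07 FPKM. Among these 4, the libraries of each gene overlapped those of the next. *Tead3* at 1.08 and *Tead1* at 0.776 FPKM followed and overlapped too. *Ankrd1* had a mean of 0.0172 FPKM, and *Tead4* was listed at 0 in every library.

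**Figure D1:**
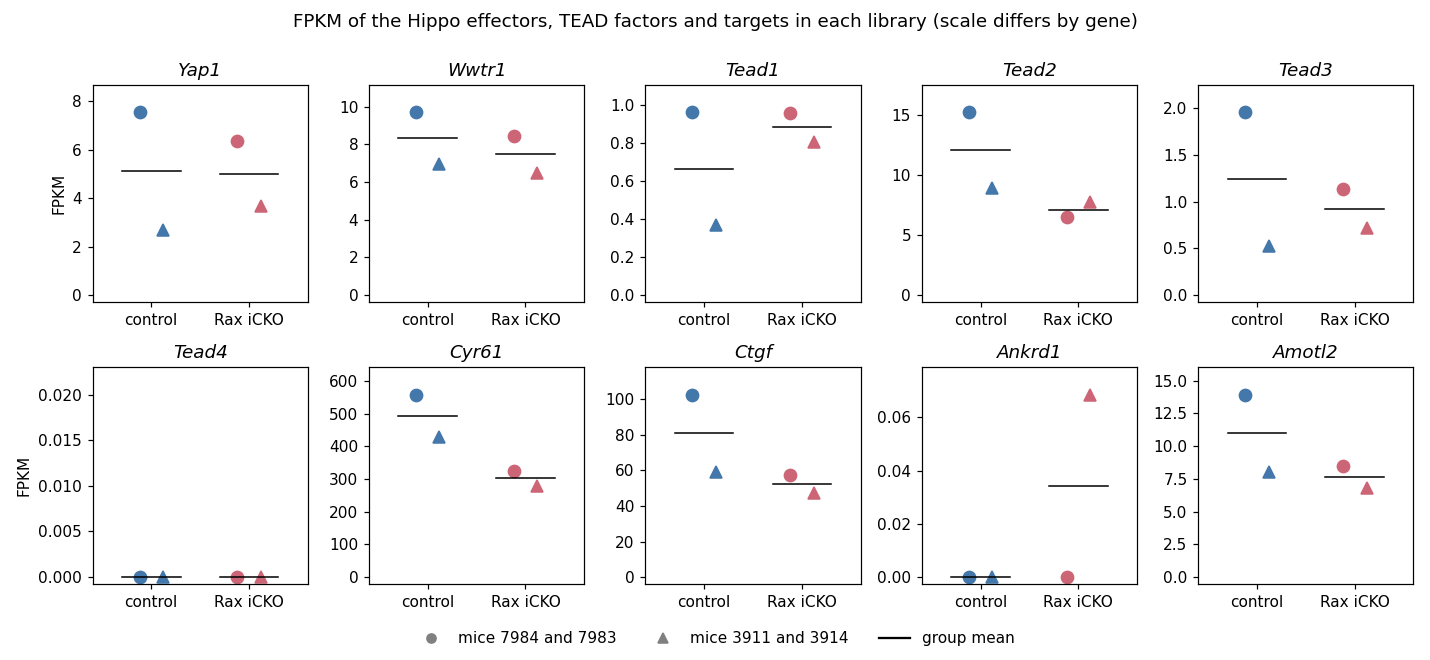
FPKM of each of the 10 genes in the 2 control (blue) and 2 *Rax* iCKO (red) libraries, with a line at the group mean, a vertical scale of its own for each gene, and circles and triangles for the runs of mouse numbers. The *Rax* iCKO points are both under the control points for *Tead2*, *Cyr61* and *Ctgf*, and control mouse 7984 holds the highest value of 8 genes.

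Of the coactivators, neither differed between the genotypes beyond the spread of the mice. For each of the 7 members tested the Benjamini-Hochberg adjusted p of limma was 0.9999. *Yap1* was at 7.54 and 2.69 FPKM in the controls and at 6.37 and 3.67 FPKM in the *Rax* iCKO libraries. The control libraries lay outside both *Rax* iCKO libraries, one above and one below, so the groups overlapped completely. Group means were 5.12 ± 3.43 and 5.02 ± 1.91 FPKM (SD, n = 2 each), and the log2 fold change (limma on log2(FPKM + 1), here and below, *Rax* iCKO over control) was 0.06 (SE 0.47, 95% interval -1.08 to 1.20). Between mice 7983 and 7984 the difference was -0.21 on that log2 scale, and between mice 3914 and 3911 it was 0.34, so the runs of mouse numbers went in opposite directions. *Yap1* shares 116 exon bases with *Gm20416* on the opposite strand.

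*Wwtr1* was at 9.70 and 6.98 FPKM in the controls and at 8.47 and 6.48 FPKM in the *Rax* iCKO libraries. These groups overlapped as well, and the higher value of each group came from the run 7983 and 7984. The log2 fold change was -0.13 (SE 0.28, 95% interval -0.81 to 0.54), with -0.18 and -0.09 within the runs. The intervals of both coactivators were wide and covered changes in either direction. *Wwtr1* exceeded *Yap1* in each of the 4 libraries, by 1.29 and 2.59 times in the controls and by 1.33 and 1.77 times in the *Rax* iCKO libraries. Summed, they gave 17.2 and 9.67 FPKM in the controls and 14.8 and 10.2 FPKM in the *Rax* iCKO libraries.

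Among the TEAD factors, which share one DNA-binding domain and are used to differing degrees in different tissues, *Tead2* was the predominant transcript. *Tead2* was at 15.2 and 8.94 FPKM in the controls and at 6.50 and 7.77 FPKM in the *Rax* iCKO libraries. The *Rax* iCKO values were both under the lower control value, and control mouse 7984 stood well above the other 3. The ratio of means was 0.590 (12.1 ± 4.46 against 7.13 ± 0.900 FPKM, SD, n = 2 each). *Tead2* did not pass the test, with a log2 fold change of -0.65 (SE 0.31, 95% interval -1.40 to 0.11). Within the runs the log2 differences were -1.12 and -0.18, and without control mouse 7984 the log2 fold change was -0.29. *Tead2* (chr7:45215753-45233644 on GRCm38, plus strand) shares 13 exon bases with *Cd37* on the opposite strand, which was below 0.75 FPKM in every library.

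*Tead3* and *Tead1* were near the limit of what was tested. *Tead3* was at 1.95 and 0.524 FPKM in the controls and at 1.13 and 0.715 FPKM in the *Rax* iCKO libraries, with overlapping groups. It passed the filter through control mouse 7984, and its log2 fold change was -0.15 (SE 0.41, 95% interval -1.15 to 0.85). *Tead1*, with a mean under 1 FPKM, was not tested. *Tead1* was at 0.963 and 0.371 FPKM in the controls and at 0.960 and 0.809 FPKM in the *Rax* iCKO libraries. The *Rax* iCKO values lay between those of the controls, and *Tead3* exceeded *Tead1* in 3 of the 4 libraries. *Tead4*, a TEAD gene of trophectoderm and muscle, was listed at 0 throughout, which in a file without counts may also be a failed estimate.

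As a share of the summed TEAD FPKM, *Tead2* made up 83.9% and 90.9% in the controls and 75.7% and 83.6% in the *Rax* iCKO libraries. The groups touched without overlapping. The sum of the TEAD genes was 18.2 and 9.84 FPKM in the controls and 8.59 and 9.29 FPKM in the *Rax* iCKO libraries, so 3 of the 4 libraries had nearly the same sum and mouse 7984 about 2 times that.

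**Figure D2:**
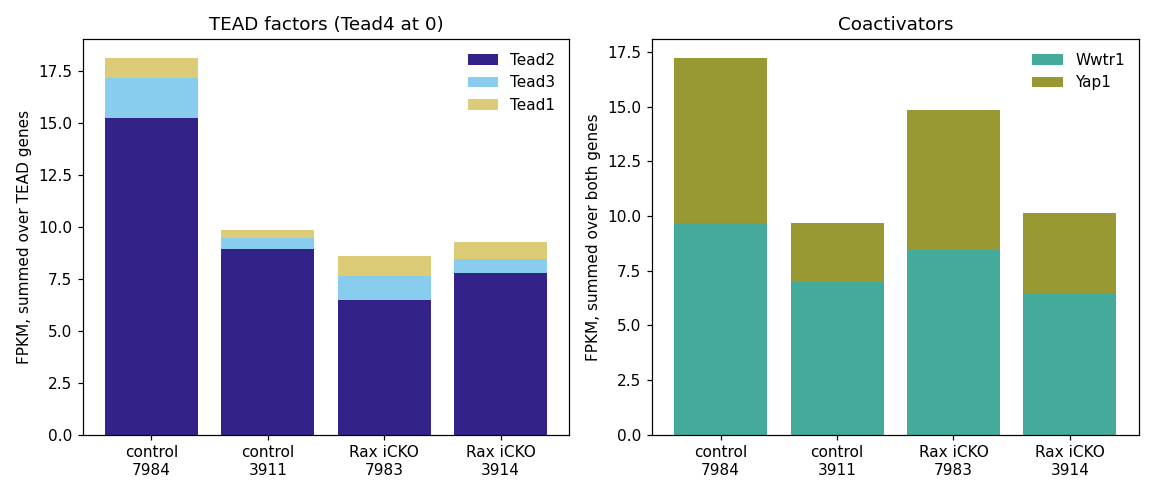
FPKM per library, stacked over the TEAD genes (left; *Tead4* is at 0) and over *Wwtr1* and *Yap1* (right), with vertical axes from 0. *Tead2* makes up between 75.7% and 90.9% of the TEAD sum, and the sum of control mouse 7984, 18.2 FPKM, stands above the other 3.

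The 3 targets that were tested had lower mean levels in the *Rax* iCKO libraries, and none passed the test after adjustment. *Cyr61*, a secreted matricellular protein and one of the most direct readouts of YAP and TAZ, was at 559 and 430 FPKM in the controls and at 326 and 279 FPKM in the *Rax* iCKO libraries. The groups did not overlap, and the gap between them was wider than that between the *Rax* iCKO libraries and narrower than that between the controls. The ratio of means was 0.611 (494 ± 91.1 against 302 ± 33.4 FPKM, SD, n = 2 each). *Cyr61* had a log2 fold change of -0.70 (SE 0.28, 95% interval -1.38 to -0.02, unadjusted limma p = 0.0446, exact permutation p = 0.333). At that unadjusted threshold 1.6% of the 12363 genes tested were lower, and in this fit *Cyr61* was the only one of the 10 genes among them. That unadjusted limma p was 0.0575 without the filter, 0.161 after quantile normalization and 0.0519 with equal medians. It was 0.0427 with a pseudocount of 0.1, 0.0431 with a filter at 5 FPKM and 0.0346 without the variance trend. With the runs as blocks it was 0.000338 (adjusted 0.0511), in a fit that put 1938 genes under 0.05. The interval below 0 thus depended on the setting and is not stable.

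The runs of mouse numbers gave like values for *Cyr61*. Its level in mouse 7983 was 0.583 times that in mouse 7984, and its level in mouse 3914 was 0.648 times that in mouse 3911. Leaving out any one library left its log2 fold change between -0.89 and -0.51. *Cyr61* (chr3:145646976-145649981 on GRCm38, minus strand) has a single annotated transcript, and its values rested on an estimated 12900, 7250, 5590 and 4720 reads in mice 7984, 3911, 7983 and 3914. Only 100 and 230 genes were above it in the controls, against 201 and 318 in the *Rax* iCKO libraries.

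*Ctgf*, the CCN family member next to *Cyr61* in most lists of YAP targets and a profibrotic matricellular protein, was at 103 and 59.0 FPKM in the controls and at 57.6 and 47.6 FPKM in the *Rax* iCKO libraries. The groups did not overlap, but control mouse 3911 was only just above *Rax* iCKO mouse 7983. The ratio of means was 0.650, and the log2 fold change was -0.56 (SE 0.31, 95% interval -1.32 to 0.19). Within the runs the levels were 0.561 and 0.806 times those of the controls. Without control mouse 7984 the log2 fold change of *Ctgf* was -0.17. *Ctgf* (chr10:24595442-24598683, plus strand) shares 665 exon bases with *Gm15270* on the opposite strand, and the strand setting of the counting is not given in the sources used here.

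*Ctgf* kept to a similar proportion of *Cyr61* in all 4 libraries. It was 0.184 and 0.137 times *Cyr61* in the controls and 0.177 and 0.171 times in the *Rax* iCKO libraries. Set against the coactivators, *Cyr61* was 32.4 and 44.4 times the summed FPKM of *Yap1* and *Wwtr1* in the controls and 22.0 and 27.4 times in the *Rax* iCKO libraries. The latter groups did not overlap, and these ratios are given as levels within a library, without a test.

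*Amotl2*, an angiomotin family protein that binds YAP at cell junctions and is itself induced by it, was at 13.9 and 8.01 FPKM in the controls and at 8.49 and 6.80 FPKM in the *Rax* iCKO libraries. *Rax* iCKO mouse 7983 lay above control mouse 3911, so the groups overlapped. Its log2 fold change was -0.43 (SE 0.32, 95% interval -1.21 to 0.34), and the levels within the runs were 0.609 and 0.849 times the control. Without control mouse 7984 it was -0.07.

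*Ankrd1*, an ankyrin repeat protein of striated muscle and a strong YAP target in many cultured cells, was at 0 in 3 libraries and at 0.0686 FPKM in *Rax* iCKO mouse 3914, which is about 1 read. With 0 as the control mean no fold is given. It counts as the one gene of the 10 past the study's 2-fold limit on means, which 7.62% of the 17865 genes with a mean over 0 passed as higher and 10.8% as lower.

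**Figure D3:**
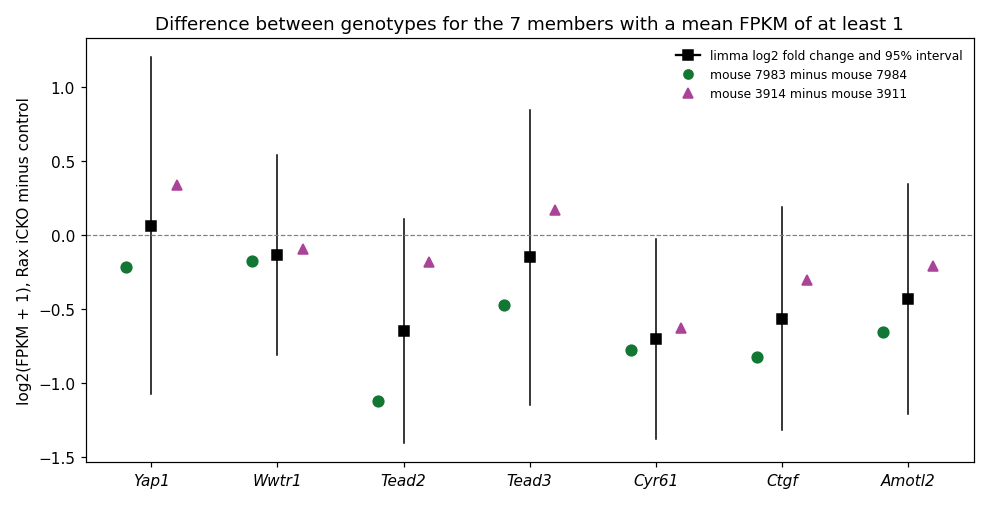
Difference in log2(FPKM + 1), *Rax* iCKO minus control, for the 7 genes tested: black squares with lines are limma log2 fold changes with 95% intervals, and green circles and purple triangles are the differences within each run of mouse numbers. The interval of *Cyr61*, -1.38 to -0.02, is the one that does not reach 0 before adjustment, and *Yap1* and *Tead3* have runs on either side of 0.

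Counted together, 0 of the 7 genes tested passed an adjusted p under 0.05. Over all 12363 genes, limma called 1 gene higher (0.00809%) and 2 lower (0.0162%), so 0 of 7 is what this background gives. Lower log2 fold changes were seen in 6 of the 7, against 6275 of all 12363, with a median of -0.43 beside -0.004 over all genes tested. *Tead3*, one of the 6, passed the filter through a control library, so its direction is in part set by the filter. For 3 of the 7 the *Rax* iCKO values were both lower than either control value, and for 0 both higher, against 14.1% and 15.4% of all genes tested. In both runs of mouse numbers 5 of the 7 were lower, against 31.7% of all genes. An exact two-sided permutation test of 2 against 2 mice cannot give a p under 0.333, which *Tead2*, *Cyr61* and *Ctgf* reached.

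Control mouse 7984 weighed on these counts. It held the highest value of 8 of the 9 genes above 0, against 26% of all genes tested, and it was also the deepest library. Without it the median log2 fold change of the 7 genes was -0.07, and without control mouse 3911 it was -0.80. Without mouse 7984 *Cyr61* still had a log2 fold change of -0.51, against -0.17 for *Ctgf*, -0.29 for *Tead2* and -0.07 for *Amotl2*.

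The other genes of the pathway had fitted values on both sides of 0. Among kinases and upstream regulators, 22 of 26 were tested, 13 had a higher and 9 a lower fitted value, and 0 passed after adjustment, with a median log2 fold change of 0.09. This median had no settled sign, since it was 0.37 without control mouse 7984 and -0.22 without control mouse 3911. *Tjp1*, the junction scaffold ZO-1, was at 10.3 and 8.69 FPKM in the controls and at 15.3 and 13.8 FPKM in the *Rax* iCKO libraries. Its log2 fold change was 0.57 (SE 0.23), and the groups did not overlap. It was the one gene of the 22 under the unadjusted limma threshold of 0.05, against 1.26% of all genes tested as higher. This was not stable, since 0 pathway genes were under it after quantile normalization, with equal medians or without the variance trend. *Dlg5*, a polarity scaffold, had a log2 fold change of 0.51 with overlapping groups. At the other end *Ajuba*, a LIM protein that inhibits LATS, was at -0.44, and *Frmd6*, a FERM protein upstream of the kinases, was at -0.29, both overlapping. The most abundant genes of the list were *Nf2*, the gene of merlin, at 22.6 and 21.1 against 26.8 and 21.7 FPKM, and *Taok2*, a kinase upstream of MST and LATS, at 18.8 and 10.1 against 20.0 and 9.01 FPKM, both with overlapping groups.

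Of the TEAD cofactors, *Vgll4*, which competes with YAP for TEADs, was at 24.9 and 14.3 FPKM in the controls and at 19.8 and 14.8 FPKM in the *Rax* iCKO libraries. *Vgll1*, *Vgll2* and *Vgll3* were listed at 0. *Vgll4* exceeded the summed coactivators in each library, and its log2 fold change was -0.14.

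Of the other 18 genes of a common YAP and TAZ signature, which include *Lats2* and *Ptpn14* of the list before, 12 were tested, 5 had a higher and 7 a lower fitted value, and 0 passed. Their median log2 fold change was -0.16, against -0.56 for the 3 tested targets described above. Without control mouse 7984 these medians were 0.05 and -0.17, and without *Rax* iCKO mouse 3914 that of the signature was 0.08. *Nuak2*, a kinase of the AMPK family, was lowest at -0.32 (7.86 and 10.6 against 6.34 and 7.97 FPKM), followed by *Nt5e*, the ectonucleotidase CD73, at -0.31. Highest were *Arhgef17*, a guanine nucleotide exchange factor, at 0.29 and *Gadd45a*, a stress-response gene, at 0.23, and all 4 had overlapping groups. *Tgfb2*, a growth factor and the most abundant of the list, was at 130 and 113 FPKM in the controls and at 139 and 114 FPKM in the *Rax* iCKO libraries. *F3*, tissue factor, was at 41.9 and 33.9 against 32.7 and 30.6 FPKM, without overlap and with a log2 fold change of -0.25. Of the 4 other CCN genes (*Nov*, *Wisp1*, *Wisp2* and *Wisp3*) none was tested, and their sum was at most 1.61 FPKM.

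**Figure D4:**
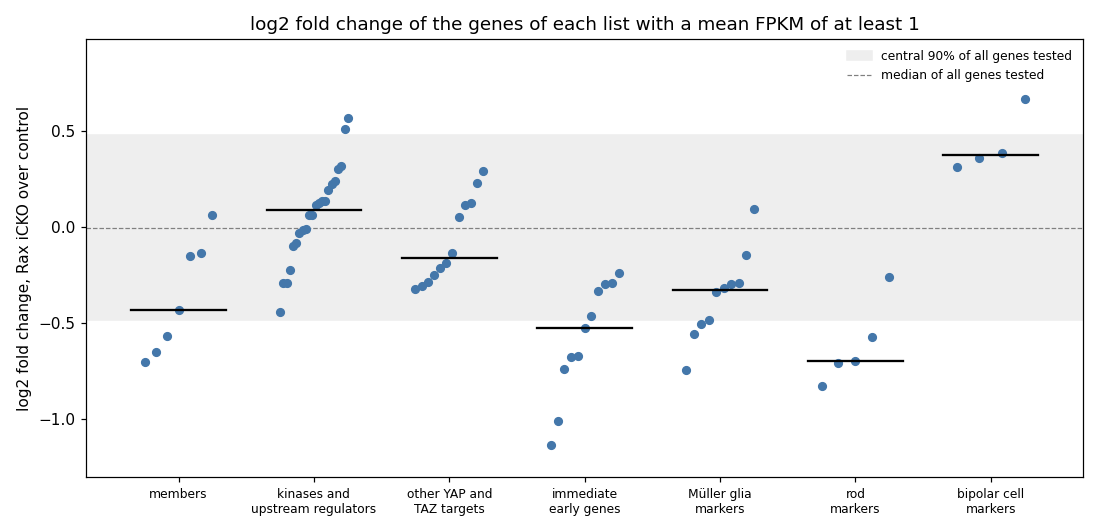
limma log2 fold change, *Rax* iCKO over control, of each tested gene (points, ordered by value) in 7 lists, with a black line at the list's median, a grey band for the central 90% of all genes tested (-0.49 to 0.48) and a dashed line at their median. The kinases and the other targets straddle 0, whereas the immediate early genes, rod markers and most Müller glia markers lie below it and the bipolar markers above it.

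*Cyr61* is also an immediate early gene, one of those that many stimuli, cell dissociation among them, induce within minutes. Of 12 other immediate early genes, 11 were tested and all 11 had a lower fitted value, with a median log2 fold change of -0.52, or -0.29 after quantile normalization. The groups did not overlap for 8 of them, against 14.1% of all genes tested, and 0 passed after adjustment. Their summed level was 4556 and 3688 FPKM in the controls and 3235 and 2809 FPKM in the *Rax* iCKO libraries. *Fos* was at 1269 and 964 against 929 and 874 FPKM, and *Dusp1* at 843 and 740 against 536 and 562 FPKM. *Ier3* (log2 fold change -1.14) and *Zfp36* (-1.01) were the lowest. The ratio of *Cyr61* to each of the 11, taken after the values were seen, had no common direction. It was lower without overlap in the *Rax* iCKO libraries for 3 (*Fos*, *Egr1* and *Btg2*), higher without overlap for 2 (*Ier3* and *Zfp36*) and overlapping for 6. Over *Fos* it was 0.440 and 0.446 in the controls and 0.351 and 0.319 in the *Rax* iCKO libraries, and over *Ier3* it was 18.9 and 17.4 against 20.9 and 31.6. The part of the immediate early genes in the level of *Cyr61* was not tested.

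Marker levels of the sorted cells also differed between libraries, and none passed after adjustment. The 10 Müller glia markers had a lower fitted value in 9 cases, with a median log2 fold change of -0.33 and 3 without overlap, against 14.1% of all genes. That median was -0.07 without control mouse 7984, -0.62 without control mouse 3911 and -0.12 after quantile normalization. Their sum was 12730 and 9435 FPKM in the controls and 8002 and 7848 FPKM in the *Rax* iCKO libraries. *Rlbp1*, which drives the Cre, was at 2616 and 2159 against 1292 and 1560 FPKM and did not pass the test, and the ratio of *Cyr61* to *Rlbp1* overlapped between the groups (0.214 and 0.199 against 0.252 and 0.179). The 5 rod markers all had lower fitted values (sum 975 and 1031 against 654 and 613 FPKM), and the 4 bipolar markers all had higher ones (769 and 1120 against 1144 and 1361 FPKM). Of the rod markers 4 were below both controls, against 14.1% of all genes tested, and *Nrl* overlapped. Of the bipolar markers 3 were above both controls, against 15.4%, and *Cabp5* overlapped. Sums for cones ran from 79.6 to 103, for amacrine cells from 3.86 to 9.64 and for ganglion cells from 4.74 to 13.1 FPKM, overlapping between the groups. Microglial markers summed to 14.0 and 14.7 FPKM in the controls and to 26.5 and 2.61 FPKM in the *Rax* iCKO libraries. In such pools of sorted cells, fewer cells of a type and less RNA per cell cannot be told apart, and the part of these shifts in the members' values was not tested.

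*Cyr61*, *Ctgf* and *Amotl2* are also made by vessels and by pigment epithelium. The endothelial markers *Pecam1*, *Cdh5* and *Tek* were at 0.638 FPKM or less and *Cldn5* at 1.77 FPKM or less in every library, although *Kdr*, which retinal cells other than endothelium also make, was between 228 and 464 FPKM. With *Kdr* the endothelial list summed to 465 and 230 FPKM in the controls and to 386 and 242 FPKM in the *Rax* iCKO libraries, overlapping. Without *Kdr* the other 4 summed to 1.58 and 2.22 FPKM in the controls and to 0.696 and 0.917 FPKM in the *Rax* iCKO libraries. These sums did not overlap, though *Pecam1* and *Tek* by themselves did. Among markers of pericytes and fibroblasts, *Pdgfrb* was between 10.3 and 24.7 FPKM and the other 5 were at 1.65 FPKM or less, with *Dcn* at 0 in 3 libraries. *Rpe65*, the defining gene of pigment epithelium, was at 0.774 FPKM or less and at 0 in 2 libraries. Of the other markers on its list, *Tyr* was at 0.480 and 0.555 against 0.988 and 1.001 FPKM, without overlap, and *Ttr* at 1.001 and 4.12 against 2.49 and 7.37 FPKM. *Best1* went the other way without overlap, at 0.334 and 0.859 against 0.113 and 0.285 FPKM, and *Pmel* overlapped. The list's sum was 2.79 and 5.998 FPKM in the controls and 5.30 and 9.21 FPKM in the *Rax* iCKO libraries. Of the astrocyte markers, *Pax2* was at 0.0381 FPKM or less and *Gfap*, which reactive Müller glia also make, was between 4.38 and 8.94 FPKM. *Pdgfra* was at 5.58 and 5.10 FPKM in the controls and at 4.40 and 1.84 FPKM in the *Rax* iCKO libraries, and the astrocyte sums, 10.4 and 14.1 against 8.78 and 8.98 FPKM, did not overlap. The sums of the pericyte and pigment epithelium lists overlapped. The part of these cell types in the members' values was not tested.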

How the data were processed

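RNA of mTFP-positive cells from 4 mice was reverse transcribed and amplified as full-length cDNA, and single-end reads were mapped to mm10. The authors deposited 1 FPKM per gene symbol and library. The submitters' processing notes name TopHat2 2.1.1, Bowtie2 2.2.8, SAMtools 0.1.18 and Cuffdiff 2.2.1, whereas the study's methods give other versions of the mapping tools and another RNA reagent, so these are not settled. Since FPKM are relative to a library's mapped fragments, a shift in abundant genes moves the others. Strandedness is not given in the sources used here. FPKM were used as deposited. Depth was estimated from the value of 1 read in genes with 1 GENCODE M21 transcript of at least 600 bases, with 200 bases taken off. Groups came from the labelled genotypes. limma 3.58.1 in R 4.3.3 (lmFit, eBayes with trend) was run on log2(FPKM + 1) for 12363 genes, those averaging 1 FPKM or more, and p-values were adjusted by Benjamini-Hochberg. Its p-values rest on the spread between 2 mice per group together with a spread shared over all genes tested.

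The study's 2-fold limit was applied to mean FPKM without the p limit that the study set beside it for its list of differing genes. Single values were compared by exact permutation in scipy 1.17.1. The mouse numbers form 2 runs with 1 mouse of each genotype, and values within a run are printed beside pooled ones. The labels do not say what a run is. The genes, lists, tests and alternatives were chosen with earlier results of these data known. Named genes are the members, *Rax*, and from each list of other Hippo genes the 2 largest, the 2 smallest and the 2 most abundant, and of the marker lists the defining markers, with *Xist*, the Y-linked genes, *Tjp1*'s statistics and the ratios between genes and single markers that differed between the groups (such as *Tyr* and *Best1*) added after their values were seen. A run of the fit on simulated data checked the code only. Its libraries were independent and its shifts larger than those of the members, and no result here rests on it. The fit was repeated with another pseudocount (0.1), without the filter or with a stricter one (5 FPKM), after quantile or median scaling, without the variance trend, with the runs as blocks, and without each mouse in turn. Promoter windows and their letters are from RefSeq on GRCm38.p6. No protein sequence was used here. A few genes of the lists are not reported here and do not enter their counts or sums.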

Additional observations from a re-analysis of the deposited data

How the results depend on the processing

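Under the alternatives that kept all 4 libraries, 0 of the 10 genes and 0 of the other pathway genes passed after adjustment. Fits without 1 mouse left 1 library in a group, so only their effect sizes are given. The lowest adjusted p of a member was 0.0511, for *Cyr61* with the replicate block, which pairs mouse 7983 with 7984 and 3914 with 3911. *Cyr61*, *Ctgf*, *Tead2* and *Amotl2* stayed lower under each of the 11 alternatives, those without 1 mouse included. Of 76 member values, 70 kept their direction and 6 turned. *Yap1* became -0.54 without control mouse 3911 and -0.27 without *Rax* iCKO mouse 7983. *Wwtr1* became 0.077 without control mouse 7984 and 0.04 without *Rax* iCKO mouse 3914. *Tead3* became 0.33 without mouse 7984 and 0.0054 without mouse 3914. Without 1 mouse *Yap1* ranged from -0.54 to 0.67, *Wwtr1* from -0.35 to 0.077 and *Tead3* from -0.63 to 0.33. The calls over all genes, 3 as reported (354 at an unadjusted p under 0.05), were 0 by limma with no filter (624 unadjusted) and 0 with a filter at 5 FPKM (279 unadjusted), 6 with equal medians, 71 with the replicate block and 15 to 20 without 1 mouse. With that block 1938 genes were under an unadjusted limma p of 0.05, and 4 members (*Cyr61*, *Ctgf*, *Tead2* and *Amotl2*) were among them. This compares with 1 member as reported and 0 with no filter, quantile normalization or equal medians. Same-run deviations correlated at 0.503, which with 2 mice per group is 1 value for both runs. The 2-fold rule gave 1 member, 0 with 1 added to each mean or with the filter at 1 FPKM, and 0 to 3 without 1 mouse. Without mouse 3911 these were *Ankrd1*, *Tead2* and *Tead3*. Over all genes it gave 3300, 106 with 1 added and 230 with the filter at 1 FPKM, since low genes then leave the count. For the other changes the cause was not tested. Depth limits the low genes, since *Tead3* rested on an estimated 6.71 to 64 reads a library, depending on the transcript assumed.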
